A study of Mus musculus with 32 samples.

Results

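The 10 genes described here belong to the integrated stress response and to the serine and one-carbon pathway it controls (Atf4, Ddit3, Trib3, Chac1, Asns, Sesn2, Phgdh, Psat1, Shmt2 and Mthfd2), and they were followed by RNA sequencing in primary mouse chondrocytes. The members were chosen by gene symbol, and all 10 were found among the 41388 genes counted. The series holds 32 libraries, 2 for each of 16 conditions, from unpassaged chondrocytes of the sterna and ribs of newborn C57BL/6 mice. Wild-type cells were left untreated or given FX11 (40 µM), a small-molecule LDHA inhibitor, IL-1β (10 ng/mL), an inflammatory cytokine, or both for 24 h. Chondrocytes with floxed alleles of Ldha (LDHA flox), Nampt (NAMPT flox) or Nfkbiz (NFKBIZ flox) received adenovirus carrying GFP or Cre for 24 h, and IL-1β was either added afterwards for 24 h or left out. LDHA makes lactate from pyruvate, NAMPT recycles nicotinamide into NAD, and Nfkbiz encodes IκB-ζ, a nuclear regulator of inflammatory genes. Cre was delivered by virus to the cultured cells, the GFP controls carry the same floxed alleles, and no wild-type culture received Cre, so that deletion of a gene and the action of Cre virus cannot be told apart within a line.

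In the integrated stress response, kinases that sense amino acid shortage, endoplasmic reticulum stress, viral RNA or mitochondrial and heme stress phosphorylate the initiation factor eIF2α. General translation then falls while translation of the transcription factor ATF4 rises, and ATF4 switches on genes that import and make amino acids, charge tRNAs and, when stress lasts, slow growth or favour cell death. Serine synthesis and the mitochondrial folate cycle belong to this programme, and chondrocytes secrete large amounts of collagen, which is rich in glycine and proline. ATF4 is controlled to a large part at translation, which transcript counts do not measure.

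Before the results, 2 libraries must be set apart. Among the 4 wild-type conditions of library set 2 (the library titles carry 2 series of numbers in different styles, taken here as sets 1 and 2, with 12 and 20 libraries), the library labelled FX11 had 2033 CPM (read counts relative to library size, scaled between libraries by the TMM method) of Mmp3, an IL-1β-induced protease, and the library labelled IL-1β had 0.790. In the flox lines Mmp3 lay between 0.358 and 3.03 CPM in the 12 libraries without IL-1β and between 146 and 1797 in the 12 with it. Both wild-type libraries therefore run against their labels, and the flox libraries do not. The deleted genes also followed the flox labels. Ldha was at 876 to 1562 CPM with GFP and 70.5 to 119.8 with Cre, and Nampt at 54.7 to 66.7 and 4.53 to 6.80. Nfkbiz was at 16.0 and 16.9 CPM with GFP and 9.55 and 8.18 with Cre, and with IL-1β at 233 and 228 against 29.1 and 32. Library totals ran from 15830658 to 39959888 counts, and the members had between 822 and 28987 counts in a library, so that the spread between the 2 libraries of a condition and not the depth limits the precision. Nothing says that the 2 libraries came from separate animals or cultures, and p-values measure only the spread between them.

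All 8 chondrocyte markers checked (Col2a1, Acan, Sox9, Col9a1, Matn1, Comp, Hapln1 and Cnmd) were present in all conditions, with a summed level of 12634 to 86257 CPM. Fibroblast and perichondrium markers summed to 811 to 9080 CPM, and macrophage and leukocyte markers to at most 93.6. Skeletal muscle markers summed to at most 219.6 CPM, osteoblast markers to at most 60.8, erythroid markers to at most 40.2 and endothelial markers to at most 24.7.

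RefSeq promoter sequences (GRCm38.p6, 250 bases before to 50 after the transcription start) matched all 10 members. They are shown because ATF4 binds composite elements with C/EBP proteins, whose usual letters TGATGNAA were searched on both strands with no other motif. The letters were present in the windows of Asns, Chac1 and Trib3, 3 of the 10 members, and in 3.97% of all 32851 promoters. The first base of the match lay 23 bases before the RefSeq start in Asns, 193 before it in Chac1 and at base 15 after it in Trib3. The RefSeq starts are not those of the counted genes, which begin at 7693254 for Asns and 152344032 for Trib3. By those starts the Asns match lies after the start and the Trib3 match before it. The match reads along the gene in Asns and on the opposite strand in Chac1 and Trib3. The stretches that hold it are printed in the direction of the gene, with the matched letters in capitals. They span chr6:7693210-7693329 on the minus strand for Asns, chr2:119350992-119351111 on the plus strand for Chac1 and chr2:152344028-152344057 on the minus strand for Trib3.
Asns: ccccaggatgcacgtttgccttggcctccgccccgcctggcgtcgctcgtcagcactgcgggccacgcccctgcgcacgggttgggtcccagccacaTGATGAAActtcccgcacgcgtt
Chac1: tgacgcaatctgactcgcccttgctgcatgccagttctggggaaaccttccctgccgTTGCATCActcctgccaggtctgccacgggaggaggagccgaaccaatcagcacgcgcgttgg
Trib3: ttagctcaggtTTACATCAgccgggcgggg

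Among the other genes of the programme, the letters were present at 5 of the 8 tRNA synthetase and Xpot genes with a promoter in the table, 4 of 11 factors and stress proteins, 2 of 6 amino acid transporters and 2 of 13 biosynthetic enzymes. They were present at 0 of 6 genes of the eIF2α kinases and phosphatase, and at 1 of 7 endoplasmic reticulum chaperones taken for contrast. A gene was counted if any of its promoters held the letters, while the share of all promoters counts each promoter. A match is a description of the letters and not of binding.

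In floxed cells with GFP virus and no IL-1β, the levels per transcript length (RPKM) placed Atf4 first, with a median of 421 over the 6 libraries of the 3 lines, and Shmt2 second at 229. Atf4 (403 to 442 RPKM) did not overlap Shmt2 (162 to 271), and Shmt2 did not overlap Phgdh, at a median of 115. Below these came Chac1 at 104, Asns at 101, Trib3 at 80.8, Ddit3 at 76.4, Psat1 at 67.7, Mthfd2 at 53.9 and Sesn2 at 51.4, and each of these overlapped its neighbours in the order. The NFKBIZ flox cells had a different balance from the other lines. Their GFP libraries had more Ddit3 (272 and 256 CPM) than those of LDHA flox (116 and 130) and NAMPT flox (130 and 140). They had less Psat1 (200 and 186 CPM against 301 to 307) and less Shmt2 (397 and 417 CPM against 549 to 656). These baseline differences were not tested, since both NFKBIZ flox libraries of a condition come from library set 2 while the other lines have 1 library from each set.

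**Figure D1:**
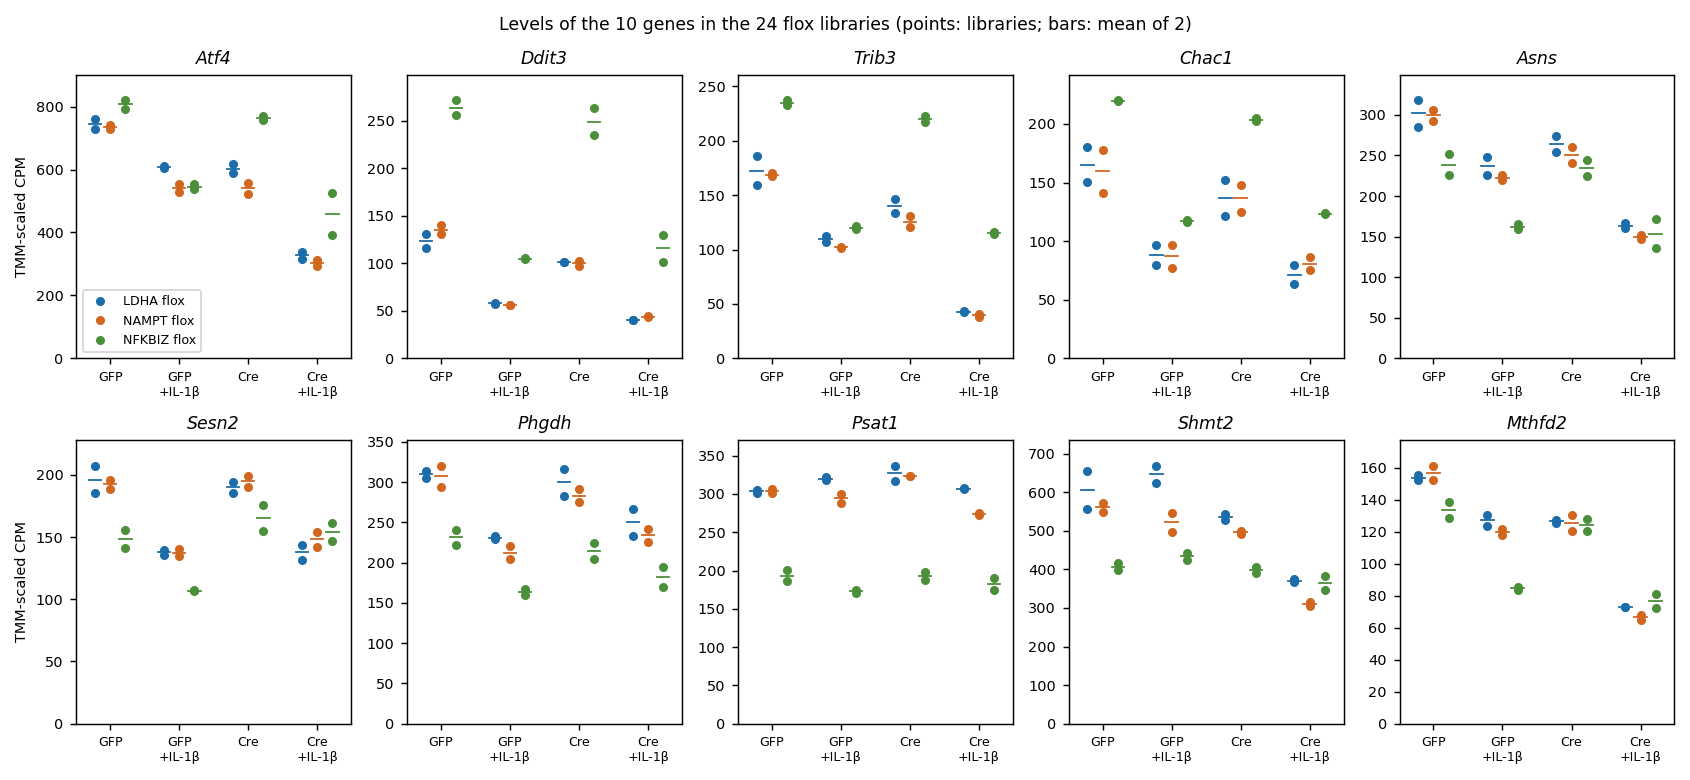
TMM-scaled CPM (vertical axes, from 0) of the 10 genes in the 24 flox libraries, by virus and IL-1β (horizontal axes) and line (colours); points are libraries and short bars the mean of 2. In LDHA and NAMPT flox cells Trib3 is at 38.5 to 43.8 CPM with Cre and IL-1β, below every other flox group, while in NFKBIZ flox cells it stays at 114 and 116.

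The first comparison asked how IL-1β changes the programme in cells with intact floxed alleles. IL-1β against no IL-1β, both with GFP virus, lowered 8 of the 10 members in each of the 3 lines (Atf4, Ddit3, Trib3, Chac1, Asns, Sesn2, Phgdh and Mthfd2) and raised none. Psat1 and Shmt2 did not pass the test in any line. Of all genes tested, 13.3% were called lower and 14.5% higher in LDHA flox cells, 17.3% and 17.7% in NAMPT flox cells, and 11.7% and 15.2% in NFKBIZ flox cells (edgeR's quasi-likelihood test, Benjamini-Hochberg adjusted p at most 0.05). The median log2 fold change of the members was −0.36, −0.40 and −0.54 in LDHA, NAMPT and NFKBIZ flox cells, and that of all genes was within 0.01 of 0 in each.

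Ddit3 (chr10:127290774-127296288, plus strand), which encodes CHOP, the factor that turns prolonged stress towards cell death, fell most among the members in every line. It was at 116 and 130 CPM with GFP alone and at 58.3 and 57.5 with GFP and IL-1β in LDHA flox cells. In NAMPT flox cells the values were 130 and 140 against 55.8 and 55.8, and in NFKBIZ flox cells 272 and 256 against 105 and 105. The libraries with IL-1β lay below those without in each line, with no overlap. The log2 fold changes were −1.06 ± 0.08 (SE; adjusted p = 6.4e-06), −1.22 ± 0.07 (adjusted p = 2.9e-07) and −1.31 ± 0.12 (adjusted p = 4.8e-06), a fall of 2.09-fold, 2.33-fold and 2.48-fold. Ddit3 shares 68 of its 1713 exon bases with Mars on the opposite strand and 13 with Gm4189, and whether counting used strand is not stated in the sources used here.

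Chac1 (chr2:119351229-119354381, plus strand), a glutathione-degrading enzyme induced downstream of ATF4 and CHOP, fell from 151 and 180 CPM to 79.5 and 96.9 in LDHA flox cells. It fell from 141 and 178 to 77.3 and 97.1 in NAMPT flox cells and from 220 and 220 to 116 and 118 in NFKBIZ flox cells. The log2 fold changes were −0.88 ± 0.17, −0.81 ± 0.15 and −0.89 ± 0.09. The pairs of libraries with and without IL-1β did not overlap in any line, and in LDHA and NAMPT flox cells the library of set 2 was the higher one in both conditions.

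Trib3 (chr2:152337422-152344032, minus strand), a pseudokinase that restrains ATF4 and AKT signalling, fell from 186 and 160 CPM to 113 and 107 in LDHA flox cells. In NAMPT flox cells it fell from 170 and 168 to 102 and 102, and in NFKBIZ flox cells from 237 and 233 to 119 and 121. The log2 fold changes were −0.63 ± 0.08, −0.67 ± 0.06 and −0.95 ± 0.09. Atf4 itself (chr15:80255184-80257540, plus strand) fell less, from 759 and 729 CPM to 605 and 612, from 742 and 730 to 530 and 555, and from 794 and 820 to 537 and 553. Its log2 fold changes were −0.26 ± 0.07, −0.38 ± 0.07 and −0.55 ± 0.13, with adjusted p of 0.026, 0.0013 and 0.0070. In LDHA flox cells this call was lost when any 1 of the 4 libraries was left out (highest adjusted p = 0.14). In the same edgeR test with the library set held as a block, its adjusted p was 0.0016.

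Asns (chr6:7675169-7693254, minus strand), which makes asparagine, had log2 fold changes of −0.32 ± 0.08, −0.37 ± 0.06 and −0.54 ± 0.12 in LDHA, NAMPT and NFKBIZ flox cells. Sesn2 (chr4:132492032-132510501, minus strand), a leucine sensor that restrains mTORC1, had −0.48 ± 0.07, −0.43 ± 0.06 and −0.46 ± 0.10. Phgdh (chr3:98313170-98339990, minus strand), the first enzyme of serine synthesis, had −0.40 ± 0.08, −0.47 ± 0.06 and −0.48 ± 0.10. Mthfd2 (chr6:83305691-83317606, minus strand), a mitochondrial folate enzyme, had −0.25 ± 0.07, −0.33 ± 0.06 and −0.64 ± 0.10. These 4 genes passed the test in each line. In LDHA flox cells the call of Asns was lost without either of 2 libraries (highest adjusted p = 0.080), as was that of Mthfd2 (highest adjusted p = 0.18). With the library set held as a block in edgeR, their adjusted p were 0.00015 and 0.0017.

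Of the serine pathway, Psat1 and Shmt2 behaved otherwise than Phgdh and Mthfd2. Psat1 (chr19:15904678-15947337, minus strand), the second enzyme of serine synthesis, was at 305 and 301 CPM without and 322 and 318 with IL-1β in LDHA flox cells. Its log2 fold changes were 0.10 ± 0.07, 0.0089 ± 0.053 and −0.14 ± 0.09 in the 3 lines, with adjusted p of 0.30, 0.91 and 0.30. Shmt2 (chr10:127517123-127522444, minus strand), which splits serine into glycine and a one-carbon unit in mitochondria, had 0.12 ± 0.08, −0.046 ± 0.058 and 0.11 ± 0.10. Shmt2 shares 30 of its 2305 exon bases with Ndufa4l2 on the opposite strand, which had 303 to 9881 counts in a library.

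**Figure D2:**
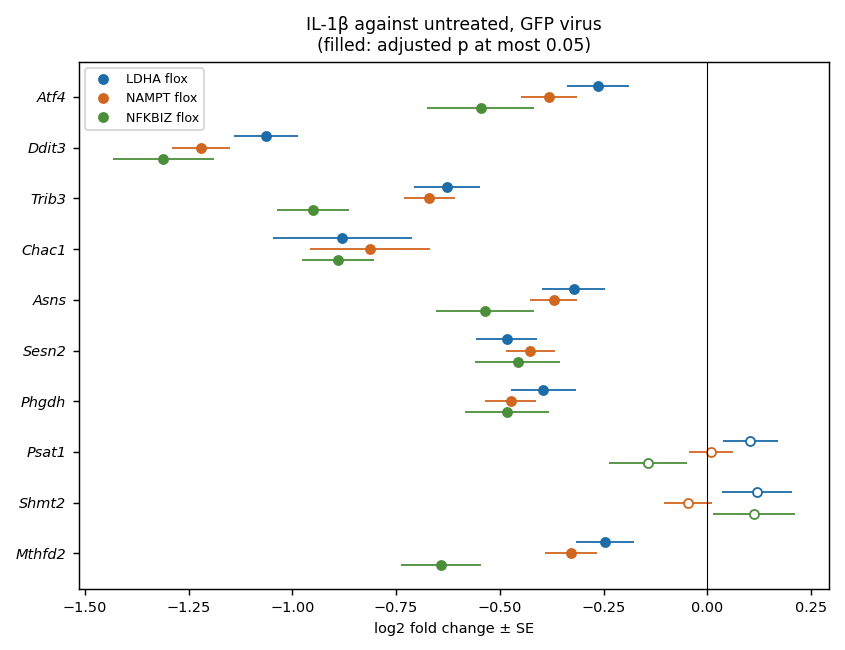
log2 fold change with its SE (horizontal axis) of IL-1β against no IL-1β in GFP-infected cells for each of the 10 genes (vertical axis) in 3 lines (colours); filled points passed an adjusted p of 0.05. In all lines 8 genes lie below 0 with filled points, Ddit3 farthest at −1.06 to −1.31, and Psat1 and Shmt2 lie near 0 with open points.

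A single library decided several of these calls in NFKBIZ flox cells. Without the first library with GFP and IL-1β, 4 of the 8 calls remained, and Atf4, Asns, Sesn2 and Phgdh were lost with adjusted p of at most 0.075. The direction of every called member was kept when any library was left out. Across the same comparisons the summed level of the 8 chondrocyte markers was 64367 to 81527 CPM in the 6 GFP libraries without IL-1β and 23385 to 28307 in the 6 with it. The 5 fibroblast and perichondrium markers summed to 5352 to 5407 CPM without and 4065 to 4115 with IL-1β in LDHA flox cells. Their sums were 4443 to 4573 against 3510 to 3516 in NAMPT and 1000 to 1188 against 906 to 935 in NFKBIZ flox cells. The 4 macrophage and leukocyte markers summed to 10.6 to 18.0 CPM without and 18.4 to 41.6 with IL-1β over the 3 lines. The part of these markers in the fall of the members was not tested. In these bulk libraries fewer cells of a type and less RNA per cell cannot be told apart.

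Other genes of the programme, from lists of 65 genes in all, moved in both directions with IL-1β. Of all genes tested 13.3%, 17.3% and 11.7% were called lower and 14.5%, 17.7% and 15.2% higher in LDHA, NAMPT and NFKBIZ flox cells. In the list of 13 genes of cytosolic tRNA synthetases and the tRNA exporter Xpot, 7 fell in LDHA, 12 in NAMPT and 12 in NFKBIZ flox cells and 0 rose. Of 9 amino acid transporters 5, 6 and 5 fell and 1, 2 and 2 rose. The rise was led by Slc7a11, the cystine importer, with log2 fold changes of 2.24 ± 0.08, 2.30 ± 0.09 and 2.52 ± 0.10. Of 18 further enzymes of serine, glycine, one-carbon, proline and alanine synthesis 7, 8 and 8 fell and 4, 4 and 3 rose. Pycr1, which makes proline, fell in each line (log2 fold changes of −1.25, −1.29 and −1.54). Tyms, thymidylate synthase, rose in each line (0.94, 0.85 and 1.24).

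Of 11 factors and secreted or stress proteins tied to ATF4, 5, 6 and 5 fell and 2 rose in each line. Nupr1, a stress-induced chromatin protein, fell in each line (−1.24, −1.34 and −1.62), and Fgf21, a stress hormone, fell in each line as well (−3.40 ± 0.18, −2.79 ± 0.24 and −2.78 ± 0.29). Cebpb, a C/EBP factor that inflammatory signals also induce, rose by 1.36 ± 0.14, 1.59 ± 0.08 and 1.90 ± 0.11. Of the 7 genes of the eIF2α kinases, eIF2α and its phosphatase 2 fell and 1 rose in each line. Of 7 endoplasmic reticulum chaperones, taken for contrast, 3, 5 and 3 fell and 0, 0 and 1 rose. Herpud1 (−0.80, −0.99 and −1.08) and Edem1 (−0.87, −0.98 and −1.16) fell in each line, and both act in the disposal of misfolded proteins.

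The second comparison asked what Cre does in each line without IL-1β. In LDHA flox cells 2 of the 10 fell (Atf4 and Mthfd2), where 2.09% of all genes tested were called lower and 3.43% higher. In NAMPT flox cells 5 fell (Atf4, Ddit3, Trib3, Asns and Mthfd2), against 6.07% of genes lower and 8.30% higher. No member passed in NFKBIZ flox cells (0 of 10), DESeq2 and voom also called 0, and 0.260% of genes were called in either direction. An unadjusted p under 0.05 was found there for 0 members and for 910 of the 15356 genes tested. The medians of the members were −0.24, −0.24 and −0.083, beside −0.018, −0.021 and −0.0023 for all genes.

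Atf4 was at 759 and 729 CPM with GFP and 617 and 588 with Cre in LDHA flox cells (log2 fold change −0.31 ± 0.07, adjusted p = 0.043). In NAMPT flox cells it was at 742 and 730 against 524 and 557 (−0.44 ± 0.07, adjusted p = 0.0013), and in NFKBIZ flox cells at 794 and 820 against 758 and 771 (−0.081 ± 0.128). The GFP libraries lay above the Cre libraries in all 3 lines, by less in NFKBIZ flox cells. Mthfd2 had −0.29 ± 0.07, −0.32 ± 0.06 and −0.11 ± 0.10. Trib3 had −0.31 ± 0.08 (adjusted p = 0.057), −0.43 ± 0.06 (adjusted p = 0.00087) and −0.096 ± 0.086. Ddit3 had −0.28 ± 0.08 (adjusted p = 0.066), −0.44 ± 0.07 (adjusted p = 0.0016) and −0.086 ± 0.119, and Asns had −0.20 ± 0.08, −0.26 ± 0.06 and −0.028 ± 0.118.

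The other 5 members did not pass with edgeR in any line, while DESeq2 and voom also called Shmt2 lower in NAMPT flox cells. The values of Chac1 were −0.28 ± 0.17, −0.22 ± 0.14 and −0.12 ± 0.09, and those of Shmt2 were −0.18 ± 0.08, −0.18 ± 0.06 and −0.033 ± 0.098. Phgdh had −0.054 ± 0.078, −0.12 ± 0.06 and −0.11 ± 0.10, Sesn2 −0.053 ± 0.073, 0.019 ± 0.059 and 0.15 ± 0.10, and Psat1 0.10 ± 0.07, 0.088 ± 0.053 and −0.0040 ± 0.0946. With the library set held as a block, which the libraries of LDHA and NAMPT flox cells warrant, the calls rose to 6 in LDHA flox cells and 8 in NAMPT flox cells, all lower. Of all genes 6.08% and 13.5% were then called lower. The block added Chac1, Trib3, Ddit3 and Asns in LDHA flox cells (adjusted p of 0.0021, 0.0021, 0.0053 and 0.022) and Chac1, Phgdh and Shmt2 in NAMPT flox cells (0.00054, 0.021 and 0.00024). Without the block, both calls in LDHA flox cells were lost when any 1 of the 4 libraries was left out (highest adjusted p = 0.26), and without the second Cre library 3 of the 5 calls in NAMPT flox cells remained (Atf4, Ddit3 and Trib3).

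Beside these values, the summed chondrocyte markers were at 65880 to 66210 CPM with GFP and 46866 to 47601 with Cre in LDHA flox cells, at 64367 to 65378 against 44713 to 45550 in NAMPT flox cells, and at 70659 to 81527 against 60538 to 73973 in NFKBIZ flox cells. The 3 endothelial markers were low but also moved, from 2.73 to 2.75 CPM with GFP to 9.65 to 9.70 with Cre in LDHA flox cells and from 2.69 to 2.90 to between 12.0 and 12.1 in NAMPT flox cells, and were at 2.04 to 2.85 against 1.18 to 2.26 in NFKBIZ flox cells. Their part in the values of the members was not tested.

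Among the lists, Cre without IL-1β lowered 4 of 9 amino acid transporters in LDHA and 6 in NAMPT flox cells, with medians of −0.31 and −0.29. The tRNA synthetase list had 0 of 13 calls in LDHA and 5 lower in NAMPT flox cells. Of the 7 chaperones taken for contrast 0 and 3 fell and 0 rose. Of the 18 enzymes 4 and 6 fell and 1 rose in each. Of the 11 factors and stress proteins 2 and 3 fell and 0 rose. Of the 7 kinase and phosphatase genes 1 fell in each, and 1 and 0 rose. No gene of any list passed in NFKBIZ flox cells, where 0.260% of all genes were called in either direction. In LDHA and NAMPT flox cells 2.09% and 6.07% of all genes were called lower and 3.43% and 8.30% higher. Ppp1r15a (GADD34, the inducible subunit that dephosphorylates eIF2α) fell in LDHA and NAMPT flox cells (−0.47 ± 0.07 and −0.55 ± 0.06). Cth, which makes cysteine from cystathionine, also fell in both (−0.60 ± 0.09 and −0.74 ± 0.09). Slc7a1, an arginine and lysine importer (−0.31 ± 0.07 and −0.25 ± 0.05), and Slc1a5, a glutamine importer (−0.37 ± 0.09 and −0.45 ± 0.06), fell in both too. Tyms (0.38 ± 0.08) and the RNA-sensing kinase Eif2ak2 (0.52 ± 0.12) rose in LDHA flox cells, and in NAMPT flox cells they had 0.30 ± 0.10 (adjusted p = 0.072) and 0.32 ± 0.15 (adjusted p = 0.21).

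The third comparison set Cre against GFP with IL-1β in both. Here 6 of the 10 members fell in LDHA and in NAMPT flox cells, and they were the same 6 genes: Atf4, Ddit3, Trib3, Asns, Shmt2 and Mthfd2. None of these passed in the 8 libraries of NFKBIZ flox cells, where 1 member, Sesn2, rose. With all 24 flox libraries in 1 model, Shmt2 also passed there, at a lower level with Cre. Many other genes changed too. Of all genes tested 17.0% were called lower and 16.9% higher in LDHA flox cells, 23.4% and 25.0% in NAMPT flox cells, and 9.20% and 8.16% in NFKBIZ flox cells. The medians of the members were −0.49, −0.46 and −0.0030, beside −0.016, −0.030 and −0.0087 for all genes.

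Trib3 changed most among the members in LDHA and NAMPT flox cells. In LDHA flox cells it was at 113 and 107 CPM with GFP and IL-1β and 43.8 and 42.4 with Cre and IL-1β, and in NAMPT flox cells at 102 and 102 against 41.1 and 38.5. In NFKBIZ flox cells it was at 119 and 121 against 114 and 116. The Cre libraries of the first 2 lines lay far below their GFP controls, while those of NFKBIZ flox cells lay just below theirs. The log2 fold changes were −1.32 ± 0.08 (adjusted p = 2.5e-06), −1.35 ± 0.06 (adjusted p = 4.3e-08) and −0.072 ± 0.087 (adjusted p = 0.63), that is 2.49-fold and 2.56-fold lower in LDHA and NAMPT flox cells.

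Atf4 was at 605 and 612 CPM with GFP against 317 and 339 with Cre in LDHA flox cells and at 530 and 555 against 295 and 313 in NAMPT flox cells. In NFKBIZ flox cells it was at 537 and 553 against 527 and 392, where the 2 Cre libraries stood apart from each other. The log2 fold changes were −0.86 ± 0.08 (adjusted p = 2.1e-05), −0.83 ± 0.07 (adjusted p = 2.7e-06) and −0.26 ± 0.13 (adjusted p = 0.20). Without the first Cre library with IL-1β, NFKBIZ flox cells had 3 calls in place of 1, with Atf4 at −0.49 ± 0.10 (adjusted p = 0.0030) and Shmt2 at −0.34 ± 0.10 (adjusted p = 0.021) added to Sesn2.

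Of the one-carbon enzymes, Shmt2 was at 669 and 623 CPM with GFP and IL-1β and 367 and 375 with Cre and IL-1β in LDHA flox cells, and at 546 and 498 against 316 and 305 in NAMPT flox cells. In NFKBIZ flox cells the values were 425 and 444 against 383 and 345. The log2 fold changes were −0.77 ± 0.08, −0.75 ± 0.06 and −0.26 ± 0.10 (adjusted p = 0.088). The libraries did not overlap in any of the lines, and the gap in NFKBIZ flox cells was the smallest. Shmt2 thus fell with Cre under IL-1β, although IL-1β alone had not moved it past the test. Mthfd2 was at 124 and 131 CPM against 73.2 and 73.3 in LDHA flox cells and at 122 and 118 against 67.8 and 65.1 in NAMPT flox cells. Its log2 fold changes were −0.76 ± 0.07, −0.85 ± 0.06 and −0.15 ± 0.10.

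Asns had −0.50 ± 0.08 (adjusted p = 0.00070) in LDHA, −0.57 ± 0.06 (adjusted p = 1.3e-05) in NAMPT and −0.090 ± 0.118 (adjusted p = 0.66) in NFKBIZ flox cells. Ddit3 had −0.49 ± 0.08 (adjusted p = 0.0011), −0.35 ± 0.07 (adjusted p = 0.0022) and 0.14 ± 0.12 (adjusted p = 0.49). The serine synthesis enzymes did not pass. Phgdh had 0.15 ± 0.08, 0.14 ± 0.06 and 0.15 ± 0.10, and Psat1 had −0.026 ± 0.067, −0.10 ± 0.05 and 0.067 ± 0.095. Chac1 had −0.27 ± 0.17, −0.10 ± 0.15 and 0.066 ± 0.087.

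Sesn2 was at 107 and 107 CPM with GFP and IL-1β and 147 and 161 with Cre and IL-1β in NFKBIZ flox cells, with no overlap (0.52 ± 0.10, adjusted p = 0.0038). Without the second GFP library with IL-1β its adjusted p was 0.053 and no member passed. In LDHA and NAMPT flox cells Sesn2 had 0.034 ± 0.074 and 0.11 ± 0.06. With the library set as a block, 8 members passed in LDHA flox cells, with Chac1 lower (−0.27 ± 0.06, adjusted p = 0.0010) and Phgdh higher (0.15 ± 0.06, adjusted p = 0.0498) beside the 6. Then 9 passed in NAMPT flox cells, with Phgdh (0.14 ± 0.04, adjusted p = 0.0027) and Sesn2 (0.11 ± 0.04, adjusted p = 0.031) higher and Psat1 lower (−0.10 ± 0.04, adjusted p = 0.021) beside the 6. The block called 22.7% of all genes lower and 22.1% higher in LDHA flox cells, and 29.1% and 29.2% in NAMPT flox cells.

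**Figure D3:**
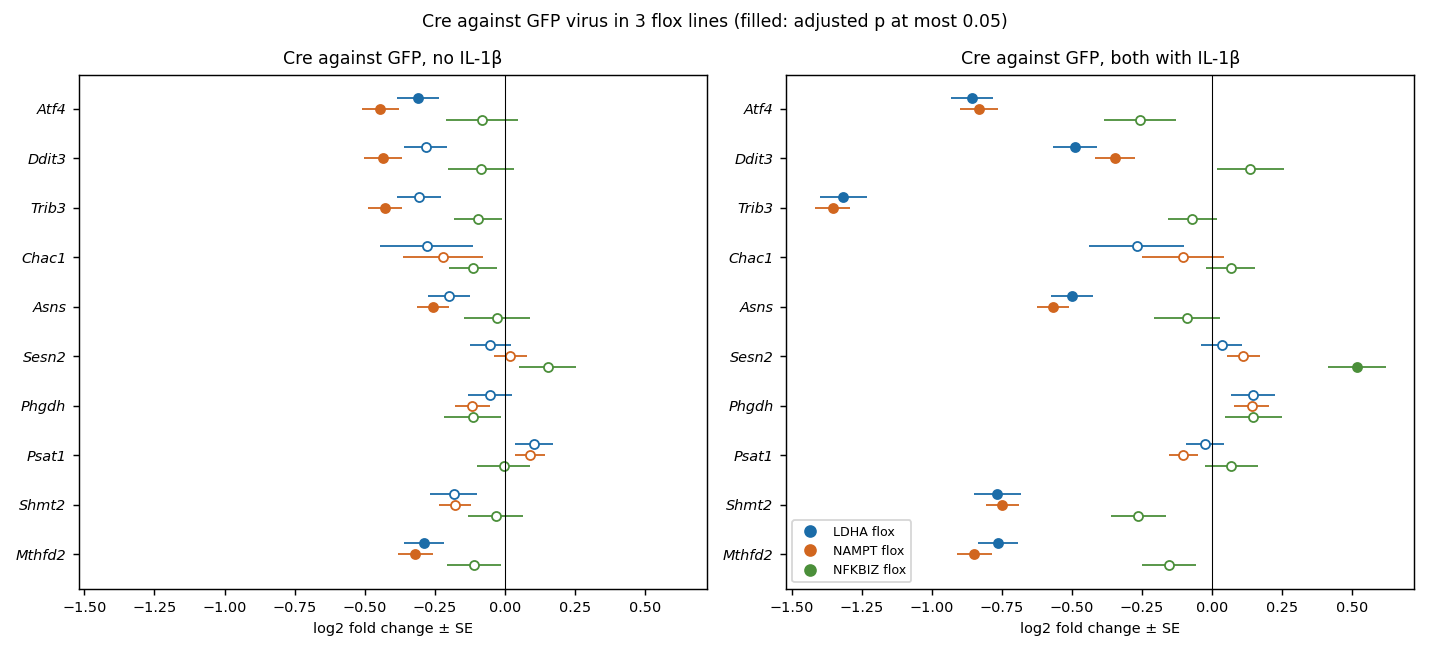
log2 fold change with its SE (horizontal axes) of Cre against GFP virus for the 10 genes (vertical axes) in 3 lines (colours), without IL-1β (left) and with it (right); filled points passed an adjusted p of 0.05. With IL-1β, Trib3 lies at −1.32 and −1.35 in LDHA and NAMPT flox cells and at −0.072 in NFKBIZ flox cells, and Sesn2 passes in NFKBIZ flox cells, at 0.52.

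The summed chondrocyte markers were at 24307 and 24312 CPM with GFP and IL-1β and between 12634 and 13902 with Cre and IL-1β in LDHA flox cells. They were between 23385 and 24107 against 13698 and 14397 in NAMPT flox cells, and between 26285 and 28307 against 31805 and 34111 in NFKBIZ flox cells. The summed fibroblast and perichondrium markers were between 4065 and 4115 CPM against 2474 and 2593, between 3510 and 3516 against 2177 and 2203, and between 906 and 935 against 811 and 858. The summed endothelial markers were at 3.81 to 4.21 CPM against 15.6 to 20.2, at 5.49 to 5.66 against 22 to 24.7, and at 2.12 to 2.33 against 3.91 to 4.40. In LDHA and NAMPT flox cells the chondrocyte and fibroblast sums were thus lower and the endothelial sum higher with Cre. Single markers did not all follow their sum. In NFKBIZ flox cells Dcn fell (log2 fold change −1.60 ± 0.16), while Col1a1 (0.17), Col1a2 (0.24), Thy1 (0.34) and Pdgfra (0.16) lay above 0 without passing. Comp fell there (−0.43 ± 0.11, adjusted p = 0.020), and no other chondrocyte marker passed. In LDHA and NAMPT flox cells Hapln1 fell most of the chondrocyte markers (−3.10 and −3.28), while Matn1 had −0.035 and 0.0016. The part of these markers in the result was not tested.

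Whether the effect of Cre itself depended on IL-1β was tested as an interaction over the 8 libraries of a line. In LDHA flox cells 4 members passed, all with a larger fall with IL-1β (Atf4, Trib3, Shmt2 and Mthfd2), where 5.60% of all genes were called in that direction. In NAMPT flox cells 5 passed, these 4 and Asns, against 9.98%. Of the members in NFKBIZ flox cells 0 of 10 passed with edgeR, DESeq2 or voom, and 5.19% of all genes were called in either direction. An unadjusted p under 0.05 was found for 1 member and for 2679 of the 15356 genes tested in that line. With all 24 flox libraries in 1 model, Sesn2 passed there. The interaction of Trib3 was −1.01 ± 0.11 (adjusted p = 0.00050) and −0.93 ± 0.09 (adjusted p = 4.8e-05), against 0.024 ± 0.123 (adjusted p = 0.95) in NFKBIZ flox cells. For Shmt2 it was −0.58 ± 0.12, −0.57 ± 0.08 and −0.23 ± 0.14, for Atf4 −0.55 ± 0.11, −0.39 ± 0.10 and −0.18 ± 0.18, and for Mthfd2 −0.48 ± 0.10, −0.53 ± 0.09 and −0.044 ± 0.137.

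For Asns the interaction was −0.30 ± 0.11 (adjusted p = 0.11), −0.31 ± 0.08 (adjusted p = 0.018) and −0.062 ± 0.167. Ddit3, the member that IL-1β moved most, had −0.21 ± 0.11 (adjusted p = 0.29), 0.091 ± 0.098 (adjusted p = 0.57) and 0.22 ± 0.17. Chac1 had 0.010 ± 0.237, 0.12 ± 0.20 and 0.18 ± 0.12. With the block, Asns was added in LDHA flox cells (adjusted p = 0.0099), and in NAMPT flox cells Psat1 (−0.19 ± 0.05, adjusted p = 0.0052) and, in the other direction, Phgdh (0.26 ± 0.06, adjusted p = 0.00032). Of all genes 10.5% then passed below 0 in LDHA flox cells, and 16.2% below and 18.8% above 0 in NAMPT flox cells. Without the first Cre library without IL-1β, 2 of the 4 calls in LDHA flox cells remained (Trib3 and Mthfd2), and without the second GFP library with IL-1β 3 of the 5 in NAMPT flox cells remained (Trib3, Shmt2 and Mthfd2).

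The differences between the lines were tested over the 24 flox libraries in 1 model, and those with IL-1β were added after the data had been seen. Without IL-1β 0 of 10 members passed in any of the 3 pairs of lines, where 0.0299% (LDHA minus NAMPT), 1.08% (LDHA minus NFKBIZ) and 3.43% (NAMPT minus NFKBIZ) of all genes were called in either direction. Unadjusted p-values under 0.05 were found for 0, 0 and 3 members, and for 656, 1514 and 2276 of the 16727 genes tested. DESeq2 and voom called Trib3 lower in NAMPT minus NFKBIZ, for which edgeR gave −0.33 ± 0.10 (adjusted p = 0.072). A block of library number within each line called it too (−0.33 ± 0.09, adjusted p = 0.044), along with 2.16% of all genes called lower. These numbers are arbitrary in NFKBIZ flox cells, where they did not pair libraries.

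With IL-1β the effect of Cre did not pass as different between LDHA and NAMPT flox cells for any member (0 of 10 with edgeR, DESeq2 or voom, and 0.138% of all genes in either direction). An unadjusted p under 0.05 was found for 0 members and for 1695 of the 16727 genes tested. The differences were small, 0.049 ± 0.101 for Trib3, −0.013 ± 0.140 for Atf4, −0.0070 ± 0.1114 for Shmt2 and 0.094 ± 0.105 for Mthfd2. Against NFKBIZ flox cells 7 of 10 passed in each case, all with a lower value in LDHA (11.8% of all genes called lower) or NAMPT flox cells (16.4%), and these comparisons share the NFKBIZ flox libraries. They were Atf4, Ddit3, Trib3, Asns, Sesn2, Shmt2 and Mthfd2 in both. Trib3 differed by −1.28 ± 0.10 (adjusted p = 8.5e-09) in LDHA minus NFKBIZ and by −1.33 ± 0.10 (adjusted p = 3.4e-09) in NAMPT minus NFKBIZ. Mthfd2 differed by −0.65 ± 0.10 and −0.74 ± 0.11, Ddit3 by −0.66 ± 0.14 and −0.53 ± 0.14, and Atf4 by −0.63 ± 0.14 and −0.62 ± 0.14. Shmt2 differed by −0.54 ± 0.11 and −0.53 ± 0.11, and Asns by −0.45 ± 0.13 and −0.52 ± 0.13. The call of Asns in LDHA minus NFKBIZ was lost in 4 of 8 fits that each left out 1 library (highest adjusted p = 0.086), namely without the first library with IL-1β of LDHA GFP, LDHA Cre, NFKBIZ GFP or NFKBIZ Cre. Sesn2 differed by −0.52 ± 0.11 and −0.45 ± 0.11, where it was the NFKBIZ flox line that had moved. With the block of library number within each line, which has the same limit, Chac1 passed as well in LDHA minus NFKBIZ (−0.37 ± 0.09, adjusted p = 0.0041). Of all genes 13.6% were then called lower.

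Within library set 2 alone, which leaves LDHA and NAMPT flox cells with 1 library a condition assumed to vary like those of NFKBIZ flox cells, 2 of 10 passed in each case. They were Trib3 (−1.24 ± 0.16, adjusted p = 0.00030, and −1.35 ± 0.16, adjusted p = 0.00011) and Mthfd2 (−0.66 ± 0.17, adjusted p = 0.030, and −0.71 ± 0.17, adjusted p = 0.013). Of all genes 4.60% and 8.28% were then called lower. The medians of the members kept close to those of both sets, at −0.49 and −0.48 against −0.53 and −0.53.

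Among the lists, the amino acid transporters moved with the members under Cre and IL-1β. All 9 fell in LDHA flox cells (log2 fold changes from −2.29 to −0.53, median −0.67) and in NAMPT flox cells (−2.87 to −0.43, median −0.81), and 3 of 9 fell in NFKBIZ flox cells (median −0.21). At the lower end of each range was Slc7a11, at −2.29 ± 0.08, −2.87 ± 0.09 and −2.89 ± 0.10, a gene chosen for its value that IL-1β had raised in all lines. Of the tRNA synthetase list 8 of 13 fell and 1 rose in LDHA and in NAMPT flox cells, and 0 passed in NFKBIZ flox cells. Of the 18 enzymes 9, 8 and 3 fell and 2, 3 and 1 rose. Of the 11 factors and stress proteins 4, 5 and 4 fell and 2, 3 and 1 rose. Of the kinase and phosphatase genes 1, 2 and 0 fell and 3, 2 and 0 rose, and of the chaperones 1, 1 and 1 fell and 2, 3 and 1 rose. Of all genes tested 17.0%, 23.4% and 9.20% were called lower and 16.9%, 25.0% and 8.16% higher in LDHA, NAMPT and NFKBIZ flox cells. Some of the smaller list counts lie near these shares.

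**Figure D4:**
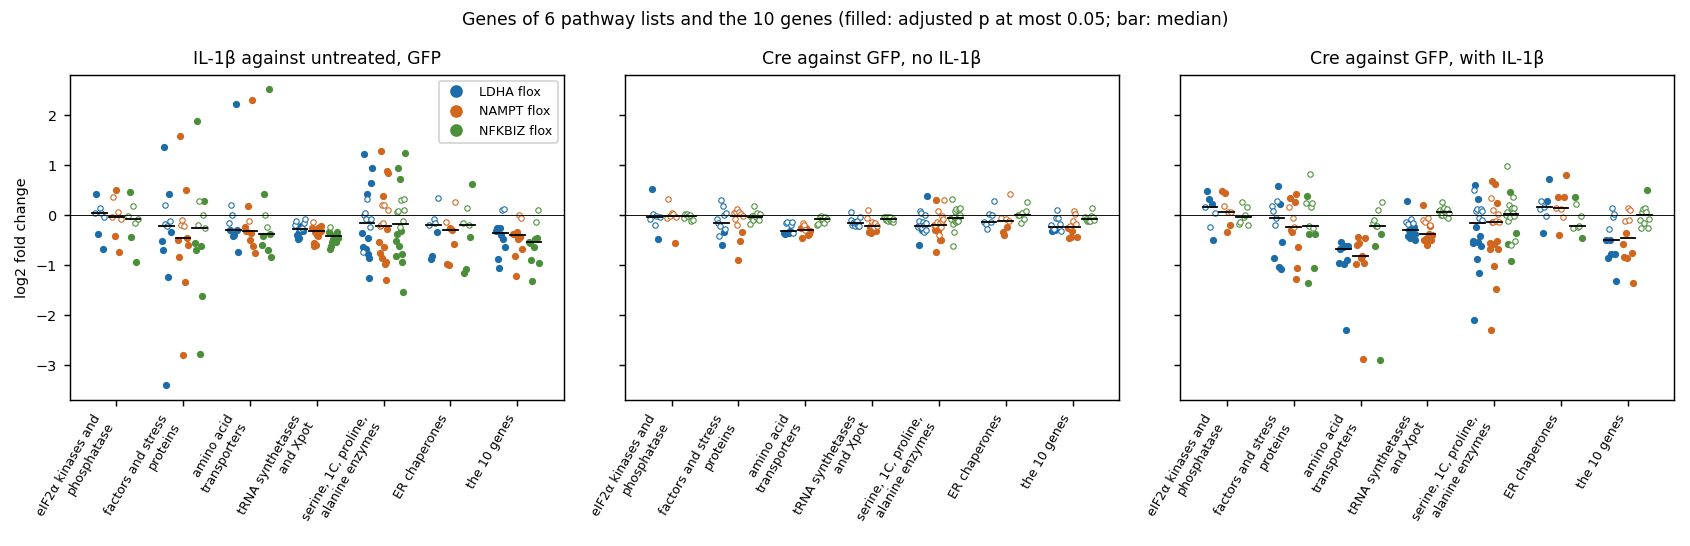
log2 fold changes (vertical axis) of the genes of 6 pathway lists and of the 10 genes (horizontal axes) for IL-1β with GFP (left), Cre without IL-1β (middle) and Cre with IL-1β (right) in 3 lines (colours); filled points passed an adjusted p of 0.05 and bars are medians. The amino acid transporters have medians of −0.67 and −0.81 with Cre and IL-1β in LDHA and NAMPT flox cells, and −0.21 in NFKBIZ flox cells.

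In the wild-type cells no member passed in any comparison: 0 of 10 for FX11 against untreated, for FX11 with IL-1β against IL-1β and for IL-1β against untreated. Of all genes 0% passed in each. Unadjusted p-values under 0.05 were found for 68, 102 and 153 genes and for 0 members, and DESeq2 called 2, 1 and 6 genes and voom 0, none of them a member. These comparisons include the 2 libraries that run against their labels, so the values are given by library.

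In set 1 Ddit3 was at 186 CPM in the untreated library, 237 with FX11, 54.3 with IL-1β and 79.3 with both. In set 2 it was at 240 in the untreated library, 100 in the library labelled FX11, 325 in the library labelled IL-1β and 223 with both. Chac1 was at 163, 175, 37.9 and 46.2 CPM in set 1 and at 170, 61.3, 213 and 90.1 in set 2, in the same order. The lowest level in set 1 was in the library labelled IL-1β and the lowest in set 2 in the library labelled FX11, for both genes.

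Trib3 was at 182, 230, 91.0 and 110 CPM in set 1 and at 206, 124, 297 and 231 in set 2. Atf4 was at 649, 725, 444 and 472 CPM in set 1 and at 667, 504, 726 and 668 in set 2. The library of set 2 with both agents had 675 CPM of Mmp3 against 8110 in set 1, and its Atf4, Ddit3 and Trib3 lay near those of the untreated library of its set, while its Chac1 lay below.

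With the 2 libraries left out, only the size of each change is given. For IL-1β against untreated the log2 fold changes were −2.15 ± 0.48 for Chac1, −1.99 ± 0.70 for Ddit3, −1.10 ± 0.50 for Trib3, −0.95 ± 0.32 for Mthfd2 and −0.58 ± 0.33 for Atf4. With all 8 libraries they were −0.41 ± 0.84, −0.17 ± 0.89, −0.00068 ± 0.62389, −0.44 ± 0.43 and −0.17 ± 0.34. For FX11 with IL-1β against IL-1β, Ddit3 was at 1.49 ± 0.68 and Trib3 at 0.92 ± 0.50 without the 2 libraries and at −0.33 ± 0.89 and −0.19 ± 0.62 with them. Without the 2 libraries a single library stood for FX11 and for IL-1β. No statement about either agent and these genes in wild-type cells can rest on it.

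**Figure D5:**
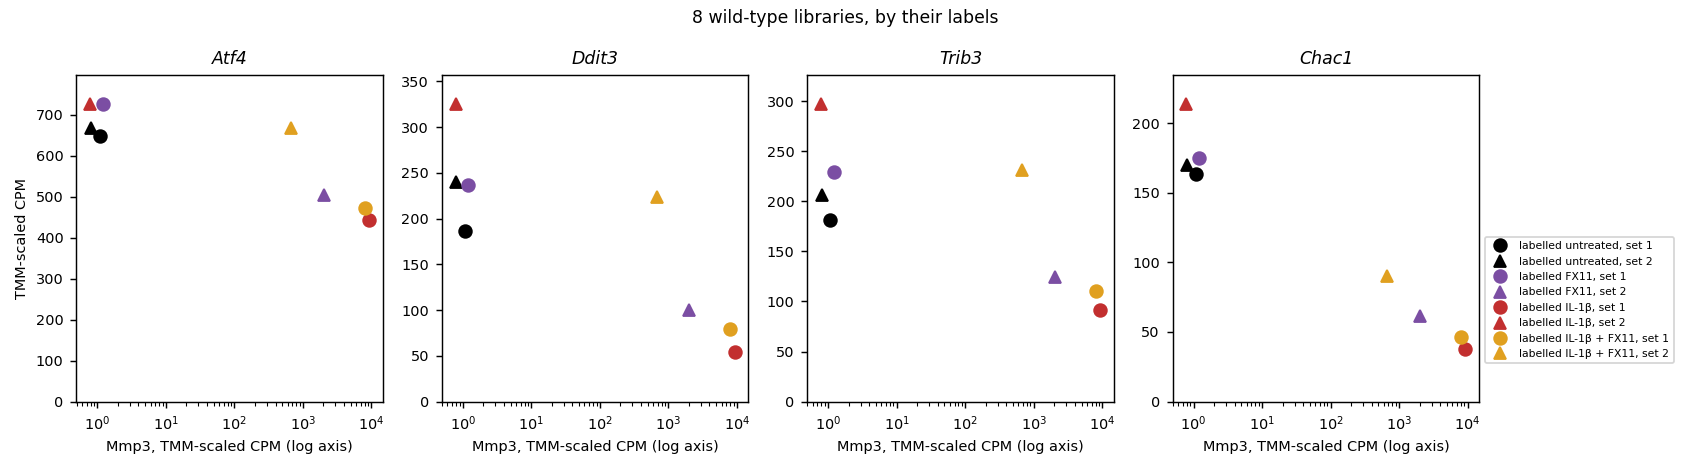
TMM-scaled CPM (vertical axes, from 0) of Atf4, Ddit3, Trib3 and Chac1 in the 8 wild-type libraries against their level of Mmp3 in CPM (horizontal log axes), coloured by the label and with circles for set 1 and triangles for set 2. The library labelled IL-1β in set 2 lies at the left, at 0.790 CPM of Mmp3, with 325 CPM of Ddit3, and the library labelled FX11 in set 2 lies at the right, at 2033 CPM of Mmp3, with 100 CPM of Ddit3.

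The members did not follow a single pattern over the conditions. Over the 12 flox conditions (means of log2(CPM + 1)), the closest pairs of members were Ddit3 and Chac1 (Pearson r = 0.98), Asns and Mthfd2 (0.98) and Atf4 and Trib3 (0.97). Psat1 ran against Ddit3 (−0.54) and Chac1 (−0.39). These values take in the baseline differences between lines as well as those of virus and IL-1β. With GFP alone Psat1 averaged 193 CPM in NFKBIZ flox cells against 303 in LDHA and 304 in NAMPT flox cells, and Ddit3 264 against 123 and 135. No correlation within a line was computed. Against the mean standardized profile of all 10 members, Asns and Mthfd2 were closest over these conditions (0.97 and 0.96) and Psat1 farthest (0.30). Over all 16 conditions the 5 other genes most like that profile, among the 17031 genes compared, were Slc7a1 (0.98), Iars (0.98), Rab39b (0.97), Abi2 (0.95) and Eif3c (0.95). The wild-type means for IL-1β and for FX11 each took in 1 of the 2 libraries that run against their labels, so this order is in doubt. Over the 12 flox conditions they were Srpx (0.99), Iars (0.99), Aldh1l2 (0.98), Aspn (0.98) and Abca8a (0.98). Slc7a1, an amino acid importer, Iars, the isoleucyl-tRNA synthetase, and Aldh1l2, a mitochondrial folate enzyme, are among the listed genes of the programme. Rab39b, Abi2, Eif3c, Srpx, Aspn and Abca8a are in none of the lists. With GFP alone the summed fibroblast and perichondrium markers were at 5352 to 5407 CPM in LDHA, 4443 to 4573 in NAMPT and 1000 to 1188 in NFKBIZ flox cells. The part of such differences between lines in this likeness was not tested. The points share libraries, lines and IL-1β, and these values describe likeness over a few condition means.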

How the data were processed

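RNA-seq counts per gene from 32 libraries of primary mouse chondrocytes were used, with each library assigned its condition from its label. The deposited counts are whole numbers, not normalized: the authors depleted ribosomal RNA, mapped reads with STAR to GRCm38 with Ensembl release 76 genes, and counted those with 1 unambiguous position with featureCounts. The deposited CPM equal each count divided by the library total, and the deposited RPKM divide these further by gene length. RPKM were used to order levels between genes, and neither unit entered a test. Symbols came from GENCODE M21, which names 40254 of 41388 identifiers.

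The 355 ribosomal RNA genes were left out, as was any gene that exceeded 1 CPM in no library, and the rest were tested with edgeR 4.0.16's quasi-likelihood test and TMM scaling (R 4.3.3), two-sided, within the 8 libraries of a line or the 24 flox libraries; printed CPM are scaled over all 32 libraries. Alternatives were DESeq2 1.42.0, limma 3.58.1 (voomWithQualityWeights, the tool of the study's methods), RLE scaling, other filters, a block, other models and each library left out. The block was the replicate number within a line, which is the library set except in NFKBIZ flox cells. The scripts were tested on simulated data. Each printed SE was derived from the edgeR test, as the absolute log2 fold change divided by the square root of the F statistic. Members and lists were chosen with earlier results of these data known. The pathway lists hold 65 genes. Named list genes were up to 3 higher and 3 lower with the smallest adjusted p-value in each comparison of IL-1β with GFP and of Cre without IL-1β, and all 10 members are named. One listed gene is not reported here by name. The letters of a motif were searched in RefSeq promoters.

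Library sets (from the title styles) serve as replicate numbers in wild-type, LDHA flox and NAMPT flox cells. Over 10872 genes the deviations of libraries of 1 set from their condition means correlated at 0.40 to 0.64 in LDHA and 0.43 to 0.57 in NAMPT flox cells, at −0.24 to 0.72 in wild type and at −0.28 to 0.096 for the arbitrary numbers in NFKBIZ flox cells. The numbers were therefore taken as pairing libraries in LDHA and NAMPT flox cells. Library totals were 15830658 to 39959888, with a median of 25363482.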

Additional observations from a re-analysis of the deposited data

Results flagged for a closer look

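The following values were singled out because a test of the difference itself passed at an adjusted p of 0.05 (edgeR's quasi-likelihood test). The effect of Cre depended on IL-1β for 4 members in LDHA flox cells, with an interaction on the log2 scale of −1.01 for Trib3, −0.58 for Shmt2, −0.55 for Atf4 and −0.48 for Mthfd2. It did so for 5 members in NAMPT flox cells, at −0.93 for Trib3, −0.57 for Shmt2, −0.53 for Mthfd2, −0.39 for Atf4 and −0.31 for Asns.

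The effect of Cre with IL-1β was lower in LDHA than in NFKBIZ flox cells for 7 members, by a log2 difference of −1.28 for Trib3, −0.66 for Ddit3, −0.65 for Mthfd2, −0.63 for Atf4, −0.54 for Shmt2, −0.52 for Sesn2 and −0.45 for Asns. Against NFKBIZ flox cells the values for NAMPT flox cells were −1.33 for Trib3, −0.74 for Mthfd2, −0.62 for Atf4, −0.53 for Ddit3, −0.53 for Shmt2, −0.52 for Asns and −0.45 for Sesn2. The NFKBIZ flox libraries serve in both sets of values, these tests were added after the data had been seen, and with library set 2 alone Trib3 and Mthfd2 passed.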

How the results depend on the processing

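Of 1350 member fold changes refitted under another setting, 1273 kept their direction and side of the threshold, 25 passed anew, 15 no longer passed and 37 changed sign, none of which had passed in the reported fit. The fits of each line with the 24 libraries in 1 model are not in these counts or in the sign changes listed below. Leaving out 1 library lost 18 of 67 calls at least once and changed the sign of 0.

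Without IL-1β, the members called for Cre in LDHA flox cells were 2 as reported, 3 with DESeq2 (Trib3 added), 1 with voom (Atf4), 2 with the 24 libraries in 1 model (Trib3 and Mthfd2), 0 with filterByExpr, 6 with the block and 0 to 1 with a library left out, where Atf4 and Mthfd2 were lost in each of the 4 fits. In NAMPT flox cells they were 5, 6 with DESeq2 and with voom (Shmt2 added), 4 with the 24 libraries in 1 model (Asns lost), 8 with the block and 3 to 5 with a library left out. With IL-1β they were 1 in NFKBIZ flox cells, 2 with the 24 libraries in 1 model and 0 to 3 with a library left out. The interaction calls were 4 in LDHA (2 to 4 with a library left out), 5 in NAMPT (3 to 5, 6 with voom and 4 with the 24 libraries in 1 model) and 0 in NFKBIZ flox cells (0 to 1, and 1 with the 24 libraries in 1 model). The call that voom added in NAMPT flox cells was Phgdh, in the other direction. IL-1β calls with GFP were 8 in NFKBIZ flox cells (4 to 7), and 7 in LDHA flox cells with the 24 libraries in 1 model (Atf4 lost). For NAMPT minus NFKBIZ without IL-1β, DESeq2, voom and the block called 1 member in place of 0. With IL-1β, set 2 alone called 2 in place of 7 in both differences against NFKBIZ flox cells. The cause of these shifts was not tested, and set 2 alone holds fewer samples.

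Counts over all genes moved by more than 1.5 times with the block for Cre without IL-1β (877 to 1994 in LDHA and 2319 to 4311 in NAMPT flox cells) and for the interaction (1825 to 3374 and 3552 to 5648). For Cre without IL-1β in NFKBIZ flox cells 40 became 71 with DESeq2, 170 without a filter and 146 with 24 libraries, and for its interaction 797 became 1325 without a filter and 1428 with 24 libraries. For the 3 wild-type comparisons 0 became 2, 1 and 6 with DESeq2, and 1 for IL-1β without the 2 libraries in doubt. For LDHA minus NAMPT without IL-1β, 5 became 16 with DESeq2, 9 with voom, 37 without a filter and 12 with the block. With IL-1β, 23 became 79, 69, 95 and 64, and 3 with set 2 alone. For LDHA minus NFKBIZ without IL-1β, 180 became 284 with DESeq2, 312 without a filter, 275 with the block and 25 with set 2 alone, and for NAMPT minus NFKBIZ 573 became 70. With IL-1β, set 2 alone gave 1537 in place of 3770 and 2884 in place of 5388.

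Sign changes without the 2 wild-type libraries in doubt were, for FX11 against untreated, to 0.13 for Atf4, 0.14 for Ddit3, 0.23 for Trib3, 0.059 for Chac1, 0.22 for Asns, 0.31 for Sesn2, 0.21 for Phgdh, 0.10 for Psat1 and 0.16 for Mthfd2. For FX11 with IL-1β against IL-1β they were to 0.38 for Atf4, 1.49 for Ddit3, 0.92 for Trib3, 0.86 for Chac1, 0.28 for Phgdh, 0.11 for Psat1 and 0.45 for Mthfd2, and for IL-1β to 0.069 for Shmt2. Set 2 alone turned LDHA minus NAMPT without IL-1β to 0.0096 for Chac1, −0.028 for Phgdh and −0.035 for Psat1, and with IL-1β to 0.010 for Atf4, 0.011 for Shmt2 and −0.075 for Phgdh. It turned NAMPT minus NFKBIZ without IL-1β to 0.047 for Phgdh, which DESeq2, RLE scaling and the block put at 0.00089, 0.0012 and 0.0026. The other changes were near 0. Chac1's interaction in LDHA flox cells went to −0.00407 without a filter and −0.040 with filterByExpr. Psat1 with IL-1β in NAMPT flox cells went to −0.025 and −0.00603 under the same settings. Shmt2 in LDHA minus NAMPT without IL-1β went to −0.00660 with DESeq2 and −0.00650 with RLE. With IL-1β, Trib3 went to −0.019 without a filter and Phgdh to −0.050 without a filter and −0.013 with filterByExpr, and in NAMPT minus NFKBIZ Phgdh went to 0.0037 without a filter.

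With the block, which the pairing of libraries in LDHA and NAMPT flox cells warrants, the calls of members that it added stand beside the results, and it changed no other. In the differences against NFKBIZ flox cells it also took in the arbitrary numbers of that line. Wild-type numbers did not all pair (5 of 6 pairs of conditions over 0.1), and the NFKBIZ flox numbers did not pair; there the block called 0 and 1 members for Cre and 8 for IL-1β, as reported. With 2 libraries a condition and at least 822 counts a member, the spread between libraries and not depth limits what was detected.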
